A study of Mus musculus with 15 samples.

Results

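Among liver transcripts of ovariectomized mice, 107 genes were more than 1 log2 unit from vehicle in the same direction with both estrogen treatments. In that direction they did not pass the bound of 1 in either group that received bazedoxifene. On the other side of vehicle there was no bound: with the combination Gldn, a higher gene, was at −1.36 and Myo15b, a lower gene, at 1.34. Of the 107 genes, 45 were higher and 62 were lower with the estrogens, out of 2545 genes in the deposited table. A gene was taken when its group mean minus the vehicle mean was above 1 with estradiol (E2) and with conjugated estrogens (CE) and at most 1 with bazedoxifene (BZA) and with the combination (CE+BZA), or the mirror image below −1. Genes whose symbols begin with the letters of detoxification enzymes, transporters, chemokines, cytokines, interferon-related genes and matrix genes were left out, as were G0s2, Enho, Mogat1 and Trim10 by name. Together this removed 11 genes, among them Cyp3a44, Cyp17a1 and Cyp4a12a by the start of the symbol and G0s2 by name. The 4 comparisons with vehicle therefore chose the genes, and their values are given here as a description without tests.

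Female C57BL/6 mice (C57BL/6J in the study's methods) were on a high-fat diet (45% of calories from fat) from 8 weeks of age and were ovariectomized at 10 weeks, vehicle controls included. Treatment lasted 6 weeks and consisted of vehicle (Veh), E2 at 5 μg per kg per day, CE at 2.5 mg per kg per day, BZA at 3 mg per kg per day, or the combination. E2 came from slow-release pellets and CE from osmotic minipumps, so dose and delivery differ between the 2 estrogens. The study's methods also give the content and release time of the E2 pellets. These were not reconciled here with the stated E2 dose, so the E2 dose delivered is uncertain. Liver RNA of 3 mice per group, 15 mice in all, was sequenced, and a sham-operated group was not analysed here. Each value is the log2 expression of a gene in 1 mouse, set so that the gene's median in the whole experiment is 0. All 2545 genes of the table differ from Veh by more than 1 in at least 1 treatment, so the table is itself a selection of genes. The number of reads per mouse is not known from the table, and it cannot be read from these values how strongly a gene is expressed relative to another gene.

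Estrogens act in hepatocytes mainly through estrogen receptor alpha, a hormone-activated transcription factor that binds DNA at estrogen response elements or works through other DNA-bound factors. Bazedoxifene is a selective estrogen receptor modulator, which occupies the same receptor and acts as an antagonist in some tissues and as an agonist in others. Many liver genes also differ between the sexes because the pituitary releases growth hormone in a pulsatile pattern in males and a more even one in females, read in the liver through the factor STAT5.

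In the mice given E2 or CE, the leading higher genes were Cux2, Socs2, Snai3, Adcy1, Bmf, Fabp5 and Serpina12, and the leading lower genes were Plin4, Raet1e, Omd and Myo15b. The 45 higher genes had a median difference from Veh of 1.26 with E2 and 1.30 with CE, against 0.26 with BZA and 0.42 with CE+BZA. For the 62 lower genes the medians were −1.32 and −1.25 with the estrogens, and −0.50 and −0.38 in the groups with bazedoxifene. Over all 2545 genes the 4 medians were 0.00 with E2, 0.06 with CE, 0.11 with BZA and 0.08 with CE+BZA. The rule fixes the order of these medians.

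**Figure D1:**
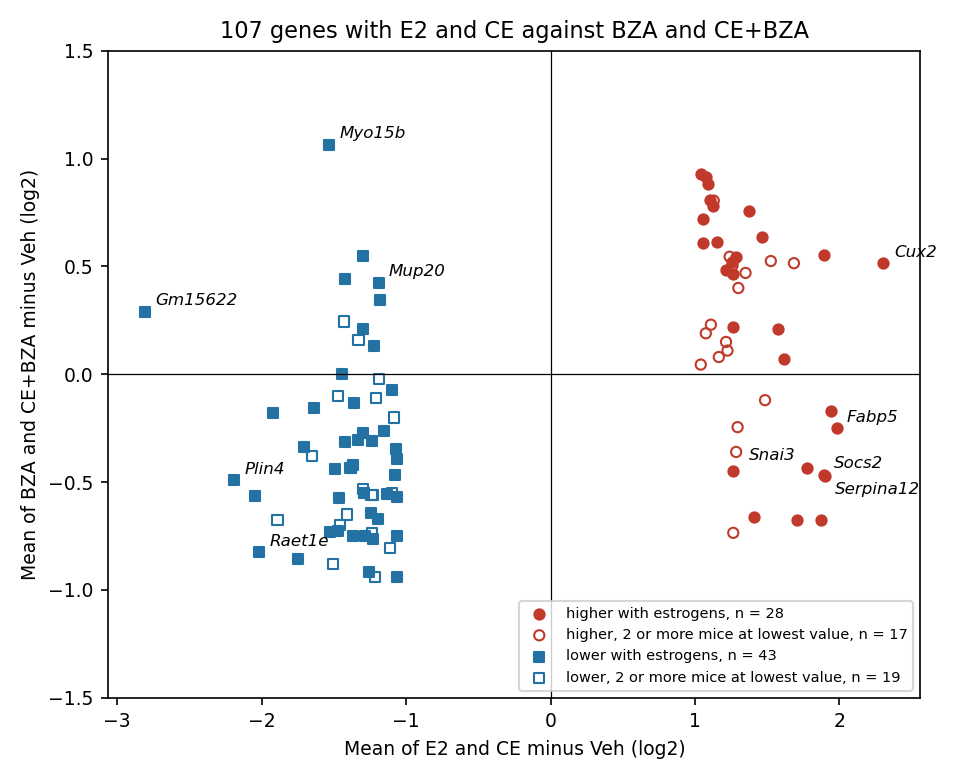
Each point is a gene of the set, placed by the mean of its E2 and CE differences from Veh (horizontal axis, log2) and the mean of its BZA and CE+BZA differences (vertical axis, log2). Open points are genes with 2 or more mice at the lowest value of the gene (17 higher, 19 lower). Bazedoxifene-treated groups spread from below to above Veh in both directions of estrogen change.

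The same direction was kept to different degrees when bazedoxifene was present. In 22 higher and 22 lower genes, BZA and CE+BZA both stayed within 0.5 of Veh in the estrogen direction or lay on the other side of it. In 7 higher and 7 lower genes, both groups lay on the side of Veh opposite to the estrogens. In 14 higher and 22 lower genes, by contrast, BZA or CE+BZA went more than 0.8 in the direction of the estrogens and was kept below the bound of 1 by a small margin. Hist2h2ac, which encodes a core histone, differed from Veh by 1.07 with E2 and 1.02 with CE, and by 0.94 with BZA and 0.92 with CE+BZA. Smc2, a subunit of the condensin complexes that compact chromosomes, differed by −1.06 with E2 and CE alike, and by −0.89 with BZA and −0.99 with CE+BZA. Both these genes were chosen after their values were seen.

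The set is a part of a larger number of genes that were on the same side of Veh with both estrogens. Of 149 genes above 1 in E2 and CE, 51 (34.2%, and 2.0% of the table) were not above 1 with BZA or CE+BZA, 25 were also above it with BZA only, 25 with CE+BZA only, and 48 in all 4 treatments. Of 179 genes below −1 in E2 and CE, 67 (37.4%, and 2.63% of the table) were not below −1 in either other group, 26 were also below it with BZA only, 35 with CE+BZA only, and 51 in all 4. These counts include the genes that were later left out by symbol.

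The genes nearest the bound show how narrow it is. Inside it were the pseudogene Gm9812 (CE minus Veh 1.0), the potassium channel gene Kcnq5 (CE minus Veh 1.01) and Accn2, the acid-sensing ion channel gene now named Asic1 (BZA minus Veh 0.991). Just outside were Prhoxnb (CE minus Veh 0.989), the clock output gene Dbp (E2 minus Veh 0.988) and the first of the pair of rows listed as Serpina11 (CE+BZA minus Veh 1.02), whose other row belongs to the set. On the lower side C330006D17Rik and Stox2 (E2 minus Veh −1.0 in both) and Mgat3 (CE+BZA minus Veh −0.986) were inside. Mak (E2 minus Veh −0.998), the connexin gene Gja5 (CE+BZA minus Veh −1.0) and Camkk1 (CE minus Veh −0.985) were outside.

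The groups overlap in most of these genes once the single mice are considered. In 7 of the 107 genes (6.54%) all 6 mice given E2 or CE lay beyond all 9 other mice, against 13 of all 2545 genes (0.511%), and since the rule used these contrasts nothing is read from the difference. The 7 genes were Socs2, its pseudogene Gm9847, Serpina12, F11 and Kcnq5 on the higher side, and Gm15622 and Raet1e on the lower side. All 3 E2 mice lay above all 3 Veh mice in 27 of the 45 higher genes (background 10.3%), and all 3 CE mice in 26 (background 13.0%). On the lower side, all 3 E2 mice lay below all Veh mice in 32 of 62 genes (background 12.4%) and all 3 CE mice in 28 (background 12.3%).

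The libraries of the 3 BZA mice and of CE mouse 3 stood apart in ways that touch this comparison. BZA mouse 3 carried adipocyte and pancreatic acinar transcripts: the mean of the 8 adipocyte markers in the table (of 12 listed) ranged from −0.37 to 3.45 over the BZA mice, against −0.59 to 0.27 over the other mice, and the mean of 12 acinar markers (of 14) reached 5.95 in that mouse and at most 0.27 outside BZA. CE mouse 3 carried neutrophil transcripts, with a mean of 9 neutrophil markers (of 10) of 6.52, against at most 1.42 in the mice of the other groups. BZA mouse 1 carried cholangiocyte transcripts, with a median of 5 markers (of 9) of 2.36 against at most 1.21 in the other mice, and the acinar gene Ctrb1 at 4.64. BZA mouse 4 was unlike the other BZA mice in the genes studied here. Its median over the 62 lower genes was −1.05, close to the −0.99 of CE mouse 3, while the other BZA mice were at −0.34 and −0.16. Over the 45 higher genes its median was −0.11, the lowest of the BZA mice (the others at 0.41 and 0.52). Over all 2545 genes its median was −0.12, against 0.12 and 0.13 in the other BZA mice. The number of separated genes was 9 without BZA mouse 1, 7 without BZA mouse 3 and 10 without BZA mouse 4. Plin4 is the single gene of the set in a cell type marker list, that of adipocytes, and was 0.00 in BZA mouse 3. Of 12 hepatocyte markers 4 were in the table, and their mean ranged from −0.50 to 0.51 over the Veh mice, 0.25 to 0.46 with E2, −0.23 to 0.56 with CE, 0.46 to 1.36 with BZA and 1.17 to 1.67 with CE+BZA. None of the 10 endothelial markers was in the table. In whole liver, fewer cells of a type and less RNA per cell cannot be told apart, and the part of the marker transcripts in the results was not tested.

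**Figure D2:**
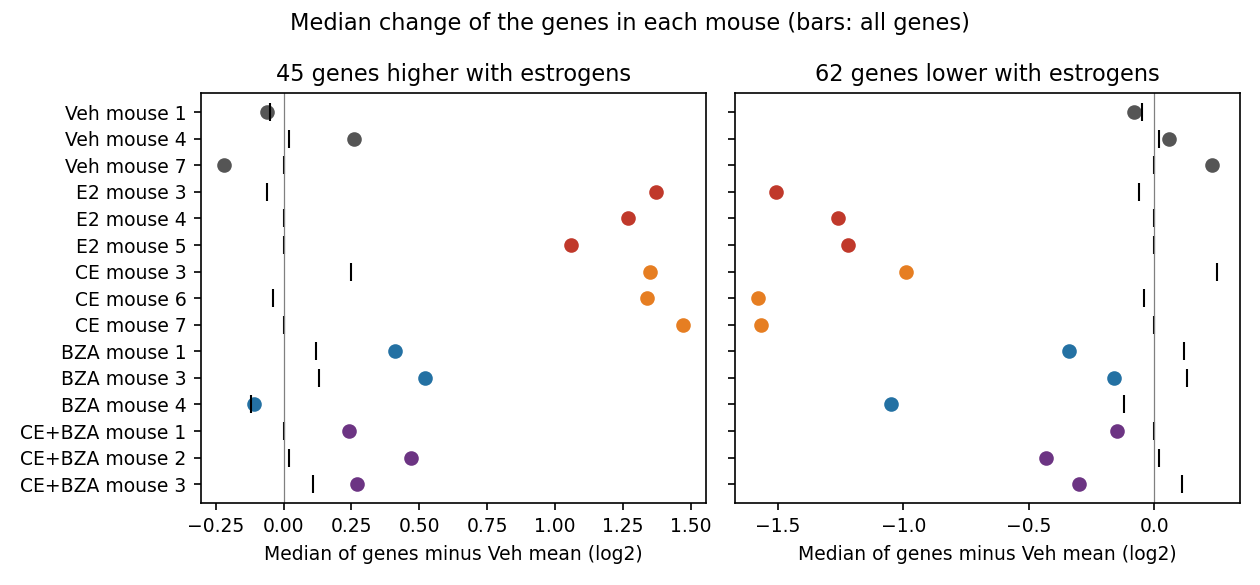
Median over the higher genes (left, n = 45) and the lower genes (right, n = 62) of each mouse's value minus the Veh mean (horizontal axis, log2), with 1 point per mouse. Vertical bars mark the median of all 2545 genes. The E2 and CE mice lie between 1.06 and 1.47 on the left and between −1.58 and −0.99 on the right, and BZA mouse 4 lies at −1.05 on the right.

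Socs2 encodes a suppressor of cytokine signalling that limits growth hormone receptor and STAT5 activity and is known both as an estrogen-responsive and as a growth hormone-responsive gene. It lies on chr10:95385362-95417180, minus strand (GRCm38). Its values were 1.46, 0.51 and 0.86 in the E2 mice, 1.11, 1.27 and 2.38 in the CE mice, and −1.0, −0.86 and 0.00 in the Veh mice. With BZA they were 0.34, −1.59 and −1.52, and with CE+BZA −1.67, −1.09 and −0.99. Every estrogen mouse was therefore above every other mouse, and BZA mouse 1 was the nearest of the others. The group means minus Veh were 1.57 with E2, 2.21 with CE, −0.30 with BZA and −0.63 with CE+BZA. The difference between E2 and CE was −0.65 (SE 0.58, 95% interval −1.88 to 0.58, FDR 0.759 by limma).

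The processed pseudogene Gm9847 on chr12:14494561-14495159 followed Socs2 within 0.46 in all 15 mice, with a median gap of 0.14. It was looked at after its values were seen. Its 599 bases match the Socs2 transcript at 99.5% identity, and 218 of the 499 windows of 101 bases in it (43.7%), the read length given in the labels, occur unchanged in Socs2. The sequences below, from the GRCm38 transcripts, show why reads of the pair are hard to place: they cover positions 244 to 333 of the 594-base Socs2 coding sequence, which differs from the pseudogene at 3 bases in all, and the capitals mark the 2 that fall within this stretch.
Socs2: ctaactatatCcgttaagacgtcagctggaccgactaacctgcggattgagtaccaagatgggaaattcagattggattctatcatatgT
Gm9847: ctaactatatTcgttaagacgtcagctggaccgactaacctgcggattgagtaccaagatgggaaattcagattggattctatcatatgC
Reads from one copy may have been counted in both, so the pair may not be independent although both are in the counts, and either value is uncertain by an amount that the table does not give.

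Cux2 encodes a transcription factor that is expressed in female more than in male mouse liver, where it takes part in the female-type expression program. Its gene is on chr5:121856366-122050102, minus strand. The E2 mice were at 0.50, 0.03 and 0.59, the CE mice at 0.00, 0.83 and 1.64, and the Veh mice at −1.93, −1.26 and −1.93. The BZA mice were at 0.17, −1.89 and −1.69 and the CE+BZA mice at −3.25, −2.08 and 1.57. The estrogen mice were all above the Veh mice, but BZA mouse 1 and CE+BZA mouse 3 lay within their range, so the small means with bazedoxifene (0.57 and 0.46 above Veh) stand for mice that differed widely. With CE+BZA the SD was 2.51, against 0.30 with E2 (n = 3 each).

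Nipal1, a magnesium transporter gene that is also on the list of female-biased liver genes, was 1.01 above Veh with E2 and 1.51 above with CE. It was at 1.0, 0.83 and 0.98 in the E2 mice, 0.97, 1.77 and 1.55 in the CE mice and −0.03, 0.00 and −0.20 in the Veh mice. BZA mouse 1 was at 1.26, within the estrogen range, while the other BZA mice were at −1.32 and −0.52 and the CE+BZA mice at −0.09, −0.83 and −1.67. BZA mouse 1 was the highest of the BZA mice in Socs2, Cux2 and Nipal1 alike.

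Mup20 encodes darcin, a major urinary protein that male mice secrete as a pheromone, and was on the lower side. The E2 mice were at 0.38, −1.22 and −2.28 and the CE mice at −0.58, −1.71 and −1.32, against 0.00, −0.51 and 0.72 in the Veh mice. The BZA values were −0.52, 1.11 and 1.44 and the CE+BZA values 0.26, 0.40 and 0.24. E2 mouse 3 lay within the Veh range, and the rest of the estrogen mice were below all Veh mice. E2 minus Veh was −1.11, and −0.49 without E2 mouse 5 or −1.82 without E2 mouse 3. The neighbouring pseudogene Mup-ps19 had almost the same coding letters: over the 516 bases that could be aligned with the 543 of Mup20 there were 0 differences, and 320 of its 419 windows of 101 bases (76.4%) occur unchanged in Mup20. The first 90 bases of the coding sequence, identical in both, are shown for that reason, in lower case throughout since no base differs.
Mup20 and Mup-ps19: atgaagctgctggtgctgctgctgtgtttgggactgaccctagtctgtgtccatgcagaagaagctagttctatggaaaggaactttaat
Mup-ps19 differed from Veh by −1.42 with E2 and CE alike, and its values were within 0.5 of Mup20 in 13 of the 15 mice, with a largest gap of 0.93. The major urinary proteins are a large family of close copies, so both values are uncertain.

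Listed sex-biased genes lay on both sides of Veh. Of 42 listed female-biased genes 22 were in the table, of which 5 were above 1 and 5 below −1 with both estrogens, and Cux2 and Nipal1 belong to the set. The medians of the 22 were 0.24 with E2, −0.09 with CE, −0.49 with BZA and −1.05 with CE+BZA, beside 0.00, 0.06, 0.11 and 0.08 over all genes. A1bg, which is on that list but not in the set, passed the test between E2 and CE by limma, a call that was lost in several other fits (0 genes with an ordinary linear model, a mean-variance trend or the replicate block, with only the 2 groups, and without E2 mouse 3 or 5 or CE mouse 3 or 6). Of 46 male-biased genes 21 were in the table, 3 above 1 (Serpina3k, Egfr and Tff3) and 3 below −1 (Cyp4a12a, Cyp4a12b and Mup20) with both estrogens. Their medians were −0.10 with E2, 0.30 with CE, 0.70 with BZA and 1.2 with CE+BZA. Of 25 classical estrogen receptor targets 9 were in the table and 2 were above 1 with both estrogens, Igfbp1 and Socs2. Igfbp1, a hepatic binding protein of insulin-like growth factors, was also 1.99 above Veh with CE+BZA and so is not in the set.

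**Figure D3:**
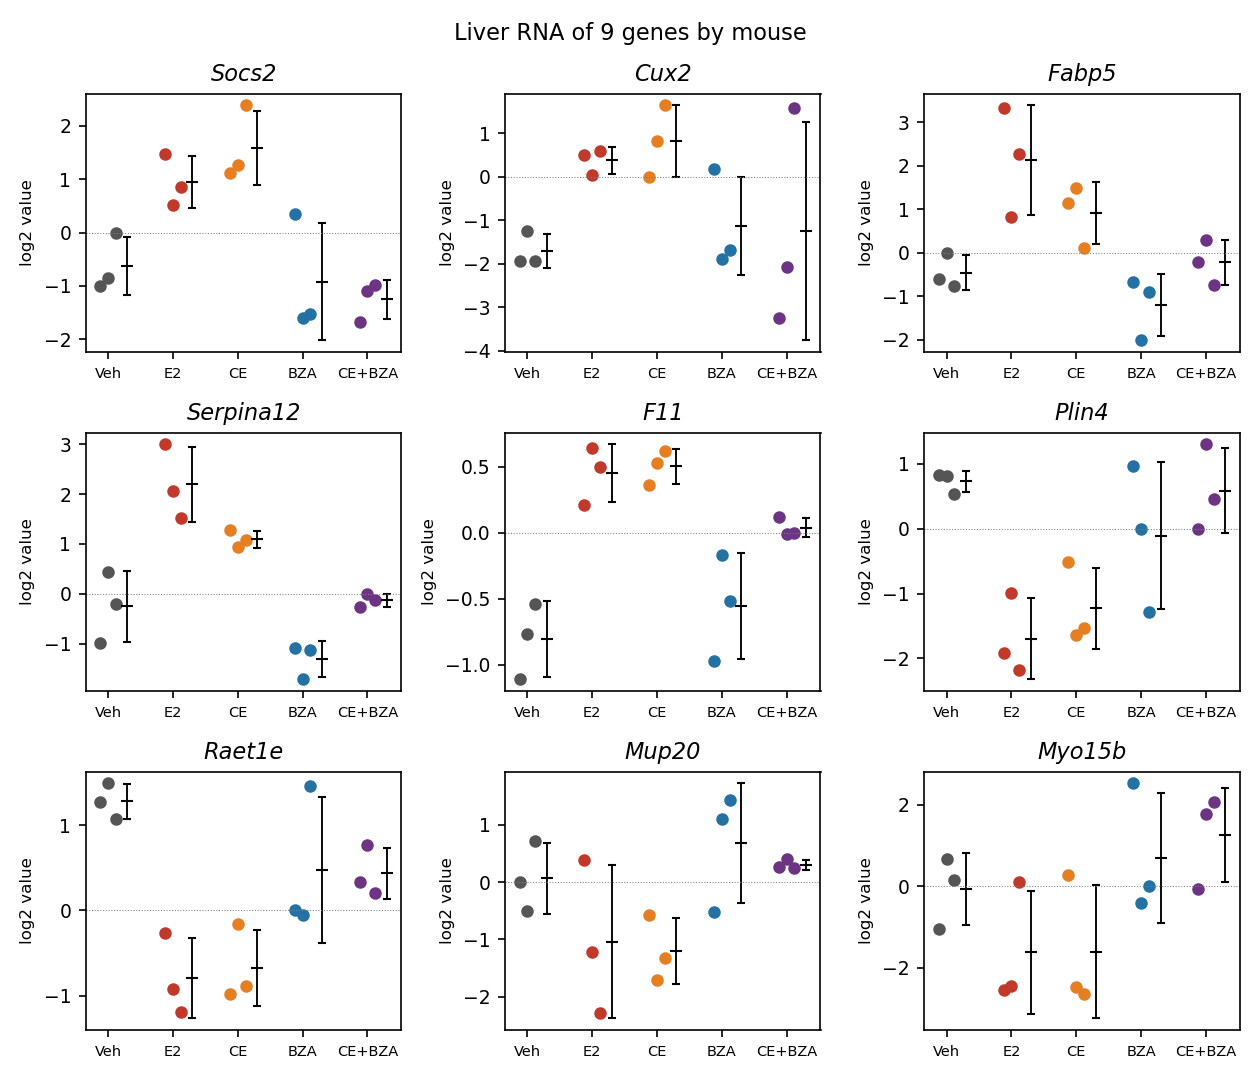
Deposited log2 values (vertical axis, relative to the median of the gene over 15 mice) of 9 genes in the 5 groups. Points are mice in the order of their numbers, and bars are the mean ± SD of 3 mice. The E2 and CE mice do not overlap the other groups in Socs2, Serpina12, F11 and Raet1e, and they do in Cux2, Plin4, Mup20 and Myo15b.

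Lipid-handling genes lay on both sides. Fabp5, a cytosolic carrier of fatty acids, was higher with the estrogens, and Plin4 and Fitm1, a lipid droplet coat protein and a protein of droplet formation, were lower. Plin4 (chr17:56100591-56109803, minus strand) was at −1.92, −0.99 and −2.18 in the E2 mice and −0.52, −1.64 and −1.53 in the CE mice, and at 0.83, 0.81 and 0.54 in the Veh mice. Values with BZA were 0.96, 0.00 and −1.29, and with CE+BZA 0.00, 1.30 and 0.46. All estrogen mice were below all Veh and CE+BZA mice, while BZA mouse 4 lay among the estrogen mice. The mean differences from Veh were −2.42 with E2, −1.96 with CE, −0.84 with BZA and −0.14 with CE+BZA, and CE+BZA minus BZA was 0.70 (SE 0.59, 95% interval −0.56 to 1.95, FDR 0.728 by limma).

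Fitm1 was between −0.92 and −0.10 in the E2 mice, between −0.52 and 0.66 in the CE mice and between 0.89 and 1.22 in the Veh mice. BZA and CE+BZA were 0.88 and 0.95 below Veh, nearly at the bound. Of 41 lipid synthesis and lipid droplet genes 15 were in the table, of which 1 (Lpin1) was above 1 and 6 (Mogat1, Plin4, G0s2, Cd36, Fitm1 and Vldlr) were below −1 with both estrogens. Their medians were −0.58 with E2, −0.80 with CE, −0.41 with BZA and −0.14 with CE+BZA. Of the 28 cholesterol and bile acid genes 4 were in the table, with 0 in the set and medians of 1.37, 0.46, 0.26 and 0.58 in the same order.

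Fabp5 (chr3:10012548-10016607, plus strand) was at 3.32, 0.82 and 2.26 with E2, 1.15, 1.48 and 0.12 with CE, and −0.60, 0.00 and −0.76 with Veh. It was at −0.67, −2.01 and −0.91 with BZA and −0.21, 0.30 and −0.73 with CE+BZA. The E2 mice were above all mice outside the estrogen groups, and CE mouse 7 lay below the highest CE+BZA mouse. E2 was 1.22 above CE (SE 0.63, 95% interval −0.11 to 2.54), an FDR of 0.586 by limma.

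A pair of processed pseudogenes of Fabp5 came with it into the set, Gm6166 on chr9:57483963-57484371 and Gm14328, both chosen after their values were seen. Gm6166 stayed within 0.36 of Fabp5 in every mouse at 98.3% identity over 409 bases, and 79 of its 309 windows of 101 bases (25.6%) occur unchanged in Fabp5. Gm14328 was within 0.5 of Fabp5 in 14 of the 15 mice, at 97.3% identity, with 7.79% of windows unchanged. Positions 259 to 348 of the 405-base Fabp5 coding sequence, which has 5 differences from Gm6166 in all, show the similarity, with the 2 differing bases of this stretch in capitals.
Fabp5: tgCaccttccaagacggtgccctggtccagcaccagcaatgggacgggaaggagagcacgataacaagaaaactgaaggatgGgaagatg
Gm6166: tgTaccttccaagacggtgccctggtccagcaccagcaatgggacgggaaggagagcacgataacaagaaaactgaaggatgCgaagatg
Thus 3 of the 45 higher genes were Fabp5 or close copies of it in sequence, and a further pair was Socs2 and its copy. Whether reads were shared between copies was not tested. Without the 4 pseudogenes whose coding gene is also in the set (Gm9847, Gm6166, Gm14328 and Mup-ps19), 42 higher and 61 lower genes remained, 103 in all, and 6 of them had all estrogen mice beyond the other mice. Further pseudogenes among the 103 resemble coding genes that are not in the table, so their values are uncertain too. Gm8258 matches Txlng at 99.0% identity, with 36.8% of windows unchanged, and Gm6245 matches Ubxn2a at 97.6% (2.84%). Gm7153 matches D030056L22Rik at 97.4% and Gm5069 matches Gapdh at 93.3%.

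**Figure D4:**
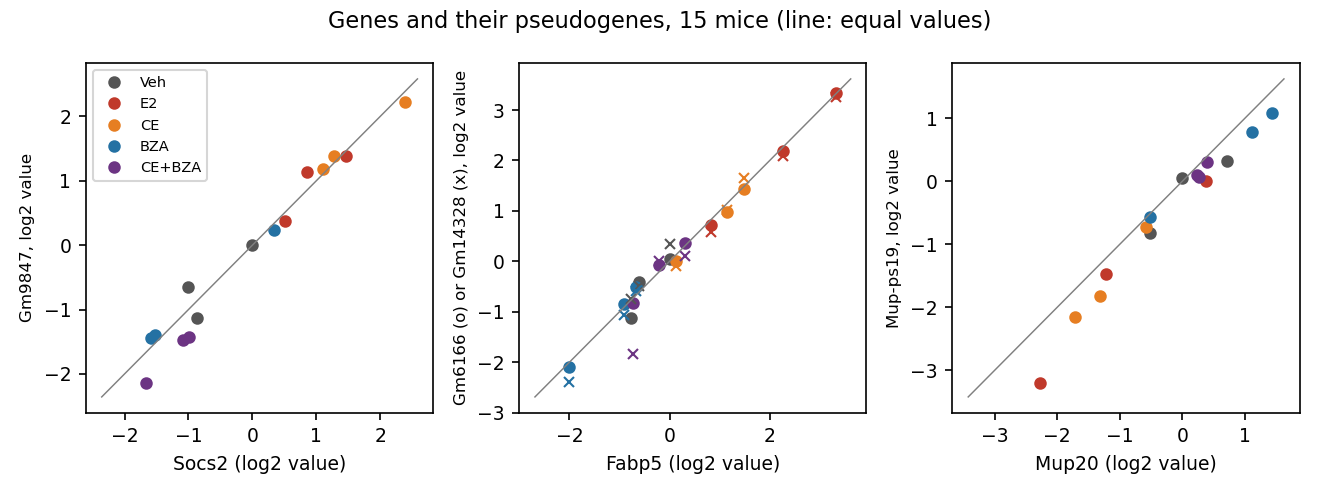
Deposited log2 values of the pseudogenes (vertical axis) against those of the coding gene (horizontal axis) in 15 mice coloured by group, for Socs2 with Gm9847, Fabp5 with Gm6166 (circles) and Gm14328 (crosses), and Mup20 with Mup-ps19. The grey line marks equal values. Gm9847 and Gm6166 stay within 0.46 and 0.36 of it in all mice, and 1 Gm14328 value departs by 1.11.

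Among the secreted proteins, Serpina12, the serpin also known as the adipokine vaspin, was at 3.00, 2.07 and 1.51 with E2, 1.27, 0.93 and 1.08 with CE and −0.99, 0.44 and −0.21 with Veh. It was at −1.09, −1.72 and −1.12 with BZA and −0.27, 0.00 and −0.13 with CE+BZA. The 5 groups thus ran from BZA, below every CE+BZA mouse, to E2, above every CE mouse. E2 exceeded CE by 1.10 (SE 0.50, 95% interval 0.04 to 2.16), with an unadjusted p of 0.0432 and an FDR of 0.523 by limma, and CE+BZA exceeded BZA by 1.18 (unadjusted p = 0.0318 by limma). Neither passed after adjustment over all genes. Without Veh mouse 1, CE minus Veh of Serpina12 was 0.98 in place of 1.35.

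F11, the liver-made coagulation factor XI, was at 0.21, 0.64 and 0.50 with E2, 0.36, 0.53 and 0.62 with CE and −1.11, −0.77 and −0.54 with Veh. With BZA the mice were at −0.97, −0.17 and −0.52, and with CE+BZA at 0.12, −0.01 and 0.00. CE+BZA therefore sat 0.84 above Veh, between Veh and the estrogen mice, and BZA 0.25 above. The difference between CE+BZA and BZA was 0.59 (SE 0.42, 95% interval −0.30 to 1.48, FDR 0.681 by limma), and that between E2 and CE −0.05 (95% interval −0.94 to 0.84).

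Other serpin genes lay on both sides. Serpina9 was 1.13 and 1.32 above Veh with E2 and CE, and the second row of Serpina11 1.03 and 1.08 above, the latter with 0.64 with BZA and 0.80 with CE+BZA. Serpina7, thyroxine-binding globulin, was 1.02 below Veh with E2 and 1.11 below with CE, and 0.43 and 0.36 below with BZA and CE+BZA. Edn1, the precursor of the vasoconstrictor endothelin 1, was 1.12 and 1.06 above, with 0.84 and 0.92 in the groups with bazedoxifene. Omd, a small leucine-rich proteoglycan, was among the lowest with the estrogens, at −2.03 with E2 and −1.81 with CE relative to Veh. Its E2 minus Veh was −1.21 without E2 mouse 5. Its BZA and CE+BZA means were within 0.22 and 0.14 of Veh. These serpins and Edn1 were picked by family after their values were seen.

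On both sides were genes of cell death, growth and signalling, of which some are described here. Bmf, a BH3-only protein that promotes apoptosis, was at 0.00, 0.64 and 1.40 with E2 and 1.0, 1.95 and 1.99 with CE, against −0.74, −0.16 and −1.27 with Veh. The BZA mice were at −0.07, −0.86 and 0.34 and the CE+BZA mice at −0.54, 0.29 and −0.18, so that only E2 mouse 3 overlapped them. CE was further from Veh (2.37) than E2 (1.41), with E2 minus CE at −0.96 (SE 0.53, 95% interval −2.09 to 0.17, FDR 0.590 by limma). Hrk, another BH3-only gene that was named after its values were seen, was on the lower side at −1.32 with E2 and −1.16 with CE, with 5 mice at its lowest value.

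Mycn, a transcription factor of the Myc family, was at 1.08, 1.17 and −0.19 with E2, 0.99, 0.45 and 0.00 with CE and −1.11, 0.39 and −1.31 with Veh. With BZA it was at −1.22, −1.34 and −0.82, and with CE+BZA at 0.05, 0.74 and −0.15. All 3 CE+BZA mice were above all BZA mice, a difference of 1.34 (unadjusted p = 0.0286 by limma), which did not pass after adjustment. CE+BZA was 0.89 above Veh and lay among the CE mice.

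Snai3, a zinc finger repressor of the Snail family, was 2.04 above Veh with E2 and 1.51 with CE, and 1 of the Veh mice, at −1.99, was far below the others (0.18 and 0.00). Without it the differences were 1.35 and 0.82. Its CE+BZA mice were at −2.0, −2.98 and −0.33, and the difference from BZA was −1.46 (95% interval −3.23 to 0.31, FDR 0.621 by limma). Adcy1, an adenylyl cyclase that makes cyclic AMP, differed from Veh by 1.46 with E2 and 1.69 with CE, and by 0.29 and 0.13 with BZA and CE+BZA. Ccnb2, a mitotic cyclin, was at 1.04 with E2 and 1.47 with CE, and at 0.52 in both groups with bazedoxifene. Of 32 cell cycle genes 9 were in the table, with 2 above 1 with both estrogens (Ccnb2 and Ccne1), 0 below −1, and medians of 0.23 with E2, 0.17 with CE, 0.10 with BZA and −0.13 with CE+BZA. Tgm1, a transglutaminase that cross-links proteins, was at 1.30 and 1.45 with the estrogens, and at 0.60 and 0.91 with BZA and CE+BZA.

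Ion channel genes, picked after their values were seen, lay on both sides. Kcng2, a modifying subunit of voltage-gated potassium channels, was 1.26 above Veh with E2 and 2.11 with CE, and 0.22 and 0.81 above with BZA and CE+BZA. Kcnq5, another potassium channel gene, separated all estrogen mice (0.17 to 1.42) from all other mice (−1.58 to 0.06), but 4 of the other mice were at its lowest value of −1.58, so its differences depend on where the authors' processing set the lowest value. Without Veh mouse 1, one of those 4, CE minus Veh of Kcnq5 was 0.55 in place of 1.01. Accn2 was 1.13 and 1.08 above Veh with the estrogens and 0.99 with BZA. The channel genes Kcna3 and Kcnip4, a channel-interacting protein, were on the lower side (Kcna3 −1.14 and −1.05, Kcnip4 −1.15 and −1.61 with E2 and CE). For Kcna3, 8 mice were at its lowest value of 0.00, all 3 E2 mice among them. Its differences thus also depend on where the lowest value was set.

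Immune-related genes on the lower side included Raet1e, a stress-induced ligand of the natural killer cell receptor NKG2D. Others were Ubd, a ubiquitin-like modifier induced by inflammatory cytokines, and Lag3, an inhibitory receptor of T cells. On the higher side was Nlrp10 (1.39 with E2 and 1.09 with CE), picked after its values were seen, with 6 mice at its lowest value. Cytokine, chemokine and interferon-related symbols were left out, so no direction of immune genes as a whole is read here. Raet1e was at −0.27, −0.92 and −1.19 with E2, −0.98, −0.16 and −0.89 with CE and 1.27, 1.49 and 1.07 with Veh. The BZA mice were at 0.00, −0.05 and 1.46 and the CE+BZA mice at 0.33, 0.77 and 0.20. All estrogen mice were below all other mice, and all CE+BZA mice were below all Veh mice, with means of 0.81 and 0.84 below Veh for BZA and CE+BZA. Raet1e has close relatives at the same locus (chr10:22158569-22374139), among which reads may have been split, so its value is uncertain. Ubd differed from Veh by −1.31 and −1.74 with the estrogens, with 1 CE mouse at −3.26 and the others at 0.40 and 0.13, and a difference of −0.56 without that mouse. Lag3, named after its values were seen, was 1.64 and 1.08 below Veh with E2 and CE, 0.37 below with BZA and 0.10 above with CE+BZA. Of 13 T and NK cell markers 4 were in the table, with medians of 0.12, 0.97, 0.78 and 0.90 above Veh in E2, CE, BZA and CE+BZA.

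Myo15b, an unconventional myosin gene, was lower with the estrogens. Myo15b was at −2.54, −2.45 and 0.11 with E2 and 0.28, −2.47 and −2.64 with CE, so that 2 mice in each group were far below and 1 in each was among the Veh mice (−1.06, 0.66 and 0.16). BZA and CE+BZA were 0.79 and 1.34 above Veh, with mice at 2.53, −0.42 and 0.00 and at −0.07, 1.77 and 2.07. Kbtbd11, a Kelch-domain protein, and Tpm2, a tropomyosin, differed from Veh by −2.03 and −1.47 and by −1.33 and −1.61 with E2 and CE. Fam198b (−1.46 and −1.28), Pabpc4l (−1.27 and −1.30) and Fam19a5 (−1.35 and −1.25) completed the leading lower genes.

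The antisense transcript Gm15622 had the largest mean difference of the set from Veh with E2 (−3.00), with −2.61 with CE, and was named after its values were seen. It was at −3.74, −0.98 and −1.98 with E2, −1.10, −3.03 and −1.39 with CE and 1.04, 0.00 and 1.26 with Veh. The BZA mice were at 0.19, 1.16 and −0.59 and the CE+BZA mice at 1.53, 2.87 and 1.18, so all estrogen mice were below all other mice. CE+BZA exceeded BZA by 1.60 (SE 0.75, 95% interval 0.03 to 3.18, unadjusted p = 0.0464 and FDR 0.556 by limma). Gm15622 (chr13:93625382-93628633, plus strand) lies within Bhmt, a betaine-homocysteine methyltransferase gene on the minus strand that is not in the table. The strand setting of the authors' counting is not given in the sources used here, so reads of Gm15622 and of Bhmt cannot be told apart. Of the 107 genes, 96 could be matched to the annotation and 79 were protein coding. Gm11586, opposite Nags, and Gm12454, opposite Car9, are antisense transcripts to which the same limit of the strand applies. It also applies to the antisense transcripts Gm15860, Gm15880, Gm16230 and 1700060J05Rik. Car9 is in the table, at 0.49 with E2, 0.58 with CE, 1.56 with BZA and −0.04 with CE+BZA relative to Veh. Gm12454 was at −1.45, −1.53, −0.49 and −0.39 in the same order.

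Promoters of the genes were searched for the letters of 4 motifs on both strands, in windows of 300 bases around the transcript start from RefSeq (GRCm38.p6). For 59 of the 107 genes the table held a promoter, 76 in all, and promoters of the same gene can overlap. Socs2, Fabp5, Mup20 and Snai3 were among the genes without one and were not searched. The estrogen response element, GGTCA and TGACC with 3 bases between them, was in 0 of 36 promoters of higher genes and 0 of 40 of lower genes, and in 0.07% of all 32851 promoters. Its half-site GGTCA was in 17 of 36 (47.2%) and 13 of 40 (32.5%), against 40.5% of all promoters. The STAT5 motif TTCNNNGAA was in 7 of 36 promoters of higher genes (19.4%) and 1 of 40 of lower genes (2.5%), against 8.3% of all promoters. Those 7 belonged to 4 genes, Cldn14, Mag, Serpina11 and Tgm1, with 3 promoters of Mag, of which 2 overlap, and 2 overlapping promoters of Serpina11, and the 1 to Lrrc2. A direct repeat of AGGTCA with 1 base between the copies was in 0 of the set's promoters and 0.0396% of all. A match describes the letters of the window and not a bound site.

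The windows of 3 of the leading genes are shown, each in the direction of its gene with the matched letters in capitals. All 3 hold a match and so do not stand for the leading genes as a whole. No window of Cux2, F11, Raet1e, Myo15b or Ubd held a half-site or the STAT5 letters. Adcy1, Bmf, Omd, Tpm2 and Pabpc4l had a half-site in at least 1 window. Serpina12 (chr12:104044394-104044693, minus strand) has a half-site 246 bases before the start, read on the other strand as TGACC. Tgm1 (chr14:55713443-55713742, minus strand) has a half-site 182 bases before it and the STAT5 letters 173 and 64 bases before. The other Tgm1 window (chr14:55713039-55713338), not shown, has a half-site 78 bases before its start and lacks the STAT5 letters. Plin4 (chr17:56109733-56110032, minus strand) has a half-site 223 bases before.
Serpina12: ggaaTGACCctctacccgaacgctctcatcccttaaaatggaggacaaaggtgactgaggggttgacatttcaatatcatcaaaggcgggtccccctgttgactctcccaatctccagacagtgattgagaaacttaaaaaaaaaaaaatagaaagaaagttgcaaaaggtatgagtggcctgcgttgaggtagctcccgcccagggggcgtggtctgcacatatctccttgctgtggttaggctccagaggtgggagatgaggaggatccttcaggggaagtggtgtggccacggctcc
Tgm1: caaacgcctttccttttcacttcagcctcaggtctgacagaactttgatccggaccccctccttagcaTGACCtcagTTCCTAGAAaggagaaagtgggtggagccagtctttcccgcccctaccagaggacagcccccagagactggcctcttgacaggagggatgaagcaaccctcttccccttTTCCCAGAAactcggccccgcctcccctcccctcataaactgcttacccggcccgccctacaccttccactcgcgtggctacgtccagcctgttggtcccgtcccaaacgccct
Plin4: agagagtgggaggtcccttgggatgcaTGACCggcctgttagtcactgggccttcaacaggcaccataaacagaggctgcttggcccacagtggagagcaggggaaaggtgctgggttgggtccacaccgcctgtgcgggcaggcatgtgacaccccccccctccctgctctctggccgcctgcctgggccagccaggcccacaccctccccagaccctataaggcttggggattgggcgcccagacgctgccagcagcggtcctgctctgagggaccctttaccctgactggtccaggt

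Whether the 2 estrogens differed in these genes was tested with limma over all 15 mice. The rule did not use that difference itself, but it put both groups past 1 on the same side of Veh. At a difference above 1 and an FDR under 0.05, 0 of the 107 genes passed between E2 and CE, against 1 of 2545 genes, A1bg (0.0393%). At an unadjusted p under 0.05 with the same difference, 1 gene of the set (Serpina12) passed. That is 0.935% of the set against 9.08% of all genes. The rule favours genes in which E2 and CE are alike, so nothing is read from the lower share in the set. The ordinary linear model without shrinkage passed 0 genes of the whole table. The median size of the difference was 0.22 over the set and 0.54 over all genes, but the rule puts both estrogens on one side of Veh and so limits it. The median 95% interval reached 1.39 to either side, so differences between E2 and CE of about the size of the changes themselves could not be detected in single genes. CE was further from Veh than E2 in 25 of 45 higher and 28 of 62 lower genes. Stxbp5l, a syntaxin-binding gene in which the 3 E2 mice were at the lowest value of −1.58, had the largest difference at −1.48 (95% interval −2.98 to 0.01, unadjusted p = 0.0517 by limma).

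Between CE+BZA and BZA, both bounded in the estrogen direction, 0 of the 107 genes passed with limma, against 0 of 2545 genes (0.0%). At an unadjusted p under 0.05 with a difference above 1, 4 genes passed (Mgat3, Mycn, Serpina12 and Gm15622), and the ordinary linear model passed 0. The 4 are 3.74% of the set against 8.76% of all genes. Since the rule bounds both groups in the estrogen direction, nothing is read from that lower share either. Mgat3, a glycosyltransferase that adds a bisecting sugar to N-glycans, was at 2.80, 0.77 and 1.29 with BZA and at −0.01, −0.99 and 0.55 with CE+BZA. That difference of −1.78 (SE 0.61, 95% interval −3.08 to −0.48, unadjusted p = 0.0104 and FDR 0.540 by limma) was the one with the lowest p in the set. For Mgat3, 3 mice were at its lowest value of −0.99, CE+BZA mouse 2 among them. The highest value, 2.80, was that of BZA mouse 1, which carried cholangiocyte transcripts. Mgat3 was 0.79 above Veh with BZA and 0.99 below with CE+BZA, where it nearly reached the bound of the estrogens. CE+BZA was further in the direction of the estrogens than BZA in 21 of 45 higher and 31 of 62 lower genes. The median size of the difference was 0.32 over the set and 0.54 over all genes, again limited by the rule.

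**Figure D5:**
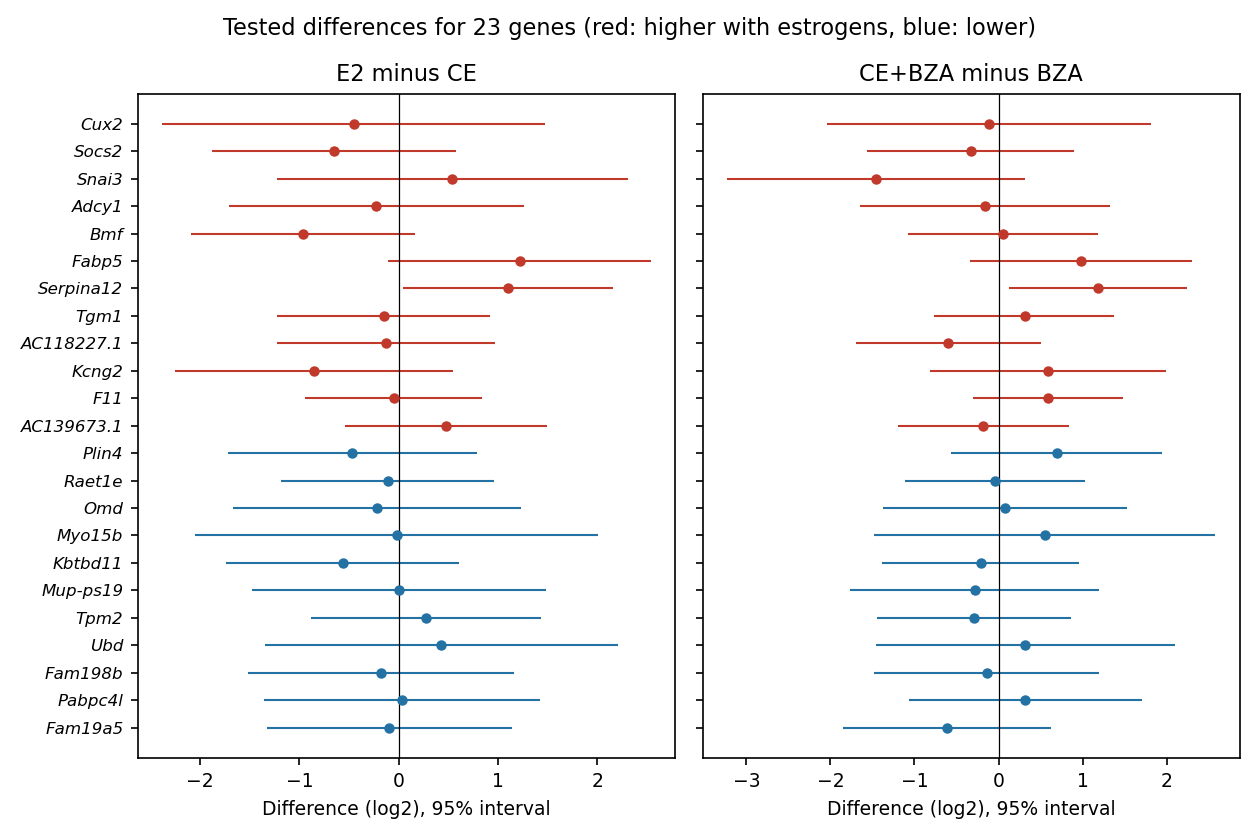
Differences between E2 and CE (left) and between CE+BZA and BZA (right) on the log2 scale for 23 of the leading genes of the set, with 95% intervals from limma over 15 mice. Red marks genes higher with estrogens and blue genes lower. Among the genes drawn, the intervals of Serpina12 alone exclude 0, with lower ends at 0.04 on the left and 0.12 on the right.

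The remaining lists held no gene of the set. Of 25 circadian genes 10 were in the table, with medians relative to Veh of 0.40 with E2, 0.72 with CE, 0.69 with BZA and 0.74 with CE+BZA. Of 33 immediate early genes 11 were in the table, with medians of 0.25, 0.87, 1.04 and 0.91 in the same order. Of 23 stress response genes 10 were in the table, with 1 (Sdf2l1) above 1 in E2 and CE and medians of 0.38, 0.75, 0.96 and 1.03. Of 27 acute phase genes 13 were in the table, with medians of 0.45, 1.33, 1.30 and 1.34. Of the other cell type markers, 6 of 12 erythroid, 4 of 11 B and plasma cell, 3 of 13 macrophage, 3 of 11 stellate and fibroblast and 5 of 9 cholangiocyte genes were in the table, and 0 of them belonged to the set. The erythroid medians were 0.96, 1.60, 1.55 and 0.33 above Veh in the same order. Apart from A1bg, no gene of any list named here passed between E2 and CE or between CE+BZA and BZA.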

How the data were processed

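Total liver RNA of 15 ovariectomized mice was sequenced on the TruSeq mRNA protocol. The authors called bases with CASAVA 1.8.2, trimmed reads with FASTQ Trimmer, mapped them with TopHat (version 0.5) to the mouse genome (mm10 among the builds in the submitters' processing notes), quantified genes with StrandNGS, partial reads included, normalized with the DESeq algorithm, and deposited log2 values centred on each gene's median. Reads per mouse and the strand setting are not given in the sources used here. The labels mention 2 sequenced samples per group and the study's methods 3, and 3 are in the table. In 1045 of 2545 genes (41.1%) at least 2 mice shared the lowest value. The table's columns were matched to mice by name, with 0 columns unmatched, and 0 of 105 pairs of mice were identical.

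No pseudocount or filter was applied to the values. Groups came from the labels, with 3 mice each. The p-values rest on the spread between mice within groups, pooled over the 5 groups and shrunk by eBayes toward that of the other genes. The fit was limma 3.58.1 (R 4.3.3; lmFit and eBayes, all 15 mice), adjusted by Benjamini-Hochberg over all 2545 genes, checked on simulated data. It was used for E2 against CE and for CE+BZA against BZA, with passing set at a difference above 1 and an FDR under 0.05. The comparisons share the 15 mice of 1 fit, and the 4 differences from Veh share the Veh mice. Genes, lists and tests were chosen with earlier results of these data known. Named genes were the 12 per direction with the largest smaller estrogen difference, a proper symbol and at most 2 mice at the lowest value, members of the lists, those nearest the bound and those with the smallest p. A gene that this rule selects is not reported here. Others are marked as named after their values were seen, or were shown for family or sequence. Positions came from GENCODE M21 (GRCm38), alignments from BLAST 2.17.0, promoters from RefSeq, and plots from Python 3.11.15, numpy 2.4.6, pandas 2.3.3 and matplotlib 3.10.9. The alternatives were other scalings, thresholds and filters, group medians, a replicate block, an ordinary linear model, a fit of the compared groups alone, a mean-variance trend, and leaving out each mouse.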

Additional observations from a re-analysis of the deposited data

How the results depend on the processing

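The set depends on where the bound is drawn and on single mice. With genes left out that have at least 2 mice at their lowest value, 28 higher genes remained in place of 45 (lower 43 in place of 62). With a threshold of 1.2 for all groups there were 25 higher and 34 lower genes, of which 17 and 23 are in the set, and with BZA and CE+BZA held to at most 0.5 there were 22 and 22. Quantile normalization gave 52 and 49 genes (30 and 41 shared with the set), centring of each mouse 41 and 64 (41 and 62 shared), and group medians 60 and 54 (25 and 21 shared). Leaving out each mouse in turn gave 39 to 67 higher and 44 to 89 lower genes, the fewest shared being 23 and 27 without Veh mouse 7. The 89 came without CE mouse 3. The number of genes whose estrogen mice lay beyond all others, 7, was 9 without BZA mouse 1, 7 without BZA mouse 3, 10 without BZA mouse 4 and 6 without the pseudogene copies. These were checked after seeing the data.

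Between E2 and CE, 1 gene of 2545 passed, with 231 at an unadjusted p under 0.05. It was 0 with an ordinary linear model, with a mean-variance trend, with only the 2 groups compared and with the replicate block, 1 with quantile normalization, centring, no fold threshold and without genes at their lowest value, and 0 to 1 when each E2 or CE mouse was left out (0 without E2 mouse 3 or 5 or CE mouse 3 or 6). Between CE+BZA and BZA, 0 passed, with 223 at an unadjusted p under 0.05, and 0 to 2 with a mouse left out (2 without BZA mouse 4, 1 without CE+BZA mouse 3), with the replicate block giving 0. The numbers are shared by labels only: over 13 pairs of same-numbered mice the correlation of their deviations ran from −0.0486 to 0.098, with 0 above 0.1. The causes were not tested.

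Of 792 alternative values of the 36 named genes against Veh (E2 or CE), 0 changed sign, but 34 moved by over 1.5 times, all of them with a mouse left out and in 21 genes, and 23 of the 34 were then within 1 of Veh. Over all alternatives 62 values in 24 genes were within 1. For E2 minus Veh, leaving out Veh mouse 7 gave 1.35 for Snai3, 0.86 for Tgm1, 0.73 for Kcng2, 0.74 for Accn2 and −0.64 for C330006D17Rik. Leaving out E2 mouse 3 gave 0.62 for Ccnb2, −1.82 for Mup20, −2.20 for Mup-ps19 and −0.28 for Stox2, E2 mouse 4 gave 0.82 for Kcng2 and −0.27 for C330006D17Rik, and E2 mouse 5 gave 0.95 for Adcy1, 0.83 for AC118227.1, −1.21 for Omd, −2.41 for Myo15b, −0.59 for Mup-ps19, −0.94 for Fam198b and −0.49 for Mup20. For CE minus Veh, the values were 0.55 for Kcnq5 without Veh mouse 1, 0.82 for Snai3 and 0.69 for Accn2 without Veh mouse 7, 1.53 for Gm9812, −2.48 for Myo15b, −1.96 for Pabpc4l and −2.0 for C330006D17Rik without CE mouse 3, −0.56 for Ubd, −0.83 for Fam19a5 and −0.63 for C330006D17Rik without CE mouse 6, and −1.01 for Myo15b, −0.55 for Pabpc4l, −0.41 for Stxbp5l and −0.74 for C330006D17Rik without CE mouse 7. Nipal1 with E2 went from 1.01 to 1.18 with quantile normalization, a shift larger than its SD in the E2 mice (0.09) or the Veh mice (0.11). It was smaller than the SD of Nipal1 with CE (0.41), BZA (1.32) or CE+BZA (0.79).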
